A study of Rattus norvegicus with 4 samples.

Results

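Cd36, Acsl1, Cpt1a, Acadl, Hadha and Hadhb, genes that carry fatty acids from the blood to mitochondrial oxidation, were followed in rat liver 1 h after the common bile duct was tied. Every probe whose platform annotation gives 1 gene symbol, and that symbol among these 6, was kept, which gave 12 of the 1936 probes of a two-colour cDNA array: 1 for Cd36, 3 for Acadl and 2 for each of the other genes. The animals were male Sprague-Dawley rats of 250 to 300 g, with no age given. In the ligated group the duct was tied between hilus and intestine under ether, and in the sham group it was only exposed. Both groups ate freely before and after surgery. Liver RNA was mixed within groups of 3 rats, so a pool, not an animal, lies behind each channel. A smaller amount of an mRNA can mean fewer cells that make it or less RNA per cell, and pooled tissue cannot tell these apart. The 4 arrays each set ligated against sham RNA, with the ligated sample in Cy5 on arrays 1 and 3 and in Cy3 on arrays 2 and 4. Whether the arrays share RNA extracts is not stated. The p-values thus cover only array-to-array spread, pooled largely over probes, which may be technical.

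Liver cells take long-chain fatty acids from the blood with the help of membrane proteins such as Cd36. Acyl-CoA synthetases such as Acsl1 join them to coenzyme A, which traps them in the cell and prepares them for use. Cpt1a, in the outer mitochondrial membrane, passes the acyl group to carnitine and is the controlled step of entry into the mitochondrion. Inside, acyl-CoA dehydrogenases such as Acadl open each round of beta-oxidation, and the mitochondrial trifunctional protein, built of Hadha and Hadhb, completes it for long chains. Many of these genes are classical targets of the fatty acid receptor PPAR alpha, which binds DNA together with a retinoid X receptor.

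RefSeq promoter windows were found for 5 of the 6 genes (all but Acadl) in the GRCr8 build. The 250 bases before the start are printed for Acsl1 and Cpt1a, whose probes changed in at least 1 of the fits below, and for Hadha, which faces Hadhb head to head. Capitals mark a CCAAT box in Acsl1 and a GC box (GGGCGG) in Hadha, both read on the opposite strand.
Acsl1, chr16:52532393-52532642, minus strand: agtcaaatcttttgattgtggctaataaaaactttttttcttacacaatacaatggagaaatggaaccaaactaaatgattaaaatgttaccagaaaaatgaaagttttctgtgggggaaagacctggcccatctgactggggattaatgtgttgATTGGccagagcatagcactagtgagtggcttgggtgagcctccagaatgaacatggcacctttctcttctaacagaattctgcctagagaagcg
Cpt1a, chr1:209995910-209996159, plus strand: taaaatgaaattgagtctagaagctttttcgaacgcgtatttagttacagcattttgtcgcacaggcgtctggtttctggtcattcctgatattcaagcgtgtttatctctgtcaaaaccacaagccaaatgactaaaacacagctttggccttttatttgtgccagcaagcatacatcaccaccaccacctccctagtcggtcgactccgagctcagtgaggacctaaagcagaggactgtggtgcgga
Hadha, chr6:31907551-31907800, plus strand: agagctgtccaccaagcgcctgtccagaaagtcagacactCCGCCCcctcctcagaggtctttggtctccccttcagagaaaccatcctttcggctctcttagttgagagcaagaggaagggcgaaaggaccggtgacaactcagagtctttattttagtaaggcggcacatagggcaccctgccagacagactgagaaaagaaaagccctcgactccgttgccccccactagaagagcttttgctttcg
The windows of Acsl1, Cpt1a and Cd36 lie inside the span RefSeq gives these genes, so other starts farther upstream are possible. The starts of Hadha and Hadhb in this table are on opposite strands with 300 bases between them, and 200 of the 250 bases are common to both windows. Searched on both strands were AGGTCA, the half-site of many nuclear receptors, its direct repeat (AGGTCANAGGTCA) and its inverted repeat (AGGTCANTGACCT). The GC box named above, the CCAAT box of letters CCAAT, and the TATA box of letters TATAAA were searched too. None of the 5 windows held AGGTCA or either repeat, which 14.1%, 0.0508% and 0.0269% of 33469 promoter windows of this length held. Cpt1a held none of the 6 motifs. The CCAAT box of Acsl1, at -95 to -91, was a motif that 34.0% of all windows held, and a GC box was held by 30.5%. The GC box of Hadha is also 1 of the 2 in the Hadhb window, since it lies in the bases common to both, and the window of Cd36 held a TATA box at -175 to -170 on the opposite strand (12.9% of windows). These matches describe letters only.

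Of the 12 probes, 2 fell after ligation and none rose: probe 433 of Acsl1 and probe 800 of Acadl. The other probes of these genes, and all probes of Cd36, Cpt1a, Hadha and Hadhb, did not pass. A probe was called where limma's p-value, adjusted by Benjamini-Hochberg over all probes, was under 0.05 for the mean log ratio of ligated over sham, with each array centred on its median and the dye as a term in the model. Among all 1936 probes 4.8% were called lower and 0.93% higher. The log ratio of 10 of the 12 probes was below 0, against 60.3% of all probes, with a median of -0.097 against -0.020 over all probes. Probes of the hepatocyte markers lay low too: 11 of 15 were below 0 (7 of 16 listed genes measured), with a median of -0.079. All those above 0 were of Cyp2e1, the marker with the most probes. The probes of Apoa1, Apob, Fgg, Serpina1, Tf and Ttr ran from -0.39 to -0.042. The fibrinogen gene Fgg was called lower at 1 of its 2 probes, a call lost in the second fit described below. The part of hepatocyte markers in the values of the 6 genes was not tested. The smallest change called anywhere on the array was 0.26 in this fit, and the fall of Acadl probe 800 was of that size (adjusted p = 0.0485). Ratios were read as channel 2 (ligated) over channel 1 (sham), the likely direction, since the labels list sham first and ligated second. If they run the other way, every sign turns.

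The deposited values depended far more on the dye than on the operation. Array medians were -0.88 and -0.73 where the ligated sample was in Cy5, and 0.75 and 0.87 where it was in Cy3. Over probes, the SD was 1.11 for the difference between dye orientations (Cy5 minus Cy3, centred). Put on the scale of the operation estimate, the dye contrast had an SD of 0.554, against 0.13 for the operation. The like contrast between arrays of the same orientation, from fewer arrays, had 0.0949 in Cy5 and 0.166 in Cy3. Lower calls also gathered in a part of the array: in the third of 16 equal runs of consecutive probe numbers (blocks), 49.6% of probes were called lower. In that block, probes of Pdk2, Fgg, Fn1 and Epor read -0.98, -1.45, -1.34 and 0.16 on array 2. On array 4, also with the ligated sample in Cy3, they read -0.087, -0.34, -0.22 and 1.39. Over the whole array 32 probes were called lower without array 2 and 202 without array 4. The part of array 2 in the calls of block 3 was not tested. No member lies in block 3, but Acsl1 probe 433 and Cd36 lie in block 4, where 9.09% were called lower and the median estimate was -0.14. Estimates are therefore given a second time after a dye curve fitted within each block, which called 3.46% of all probes lower and 3.62% higher, the smallest change called being 0.13. The Fgg probe called lower lies in block 3 and was not called after the curve (-0.024 ± 0.04, limma adjusted p = 0.817). Of the 12 member probes, 10 were below 0 after the curve too, with a median of -0.043, against 0.0021 over all probes. Of the hepatocyte marker probes, 10 of 15 were then below 0, against 48.7% of all probes. Their median was -0.024, with 1 called higher (Cyp2e1 probe 1234) and 1 lower (Ttr).

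**Figure D1:**
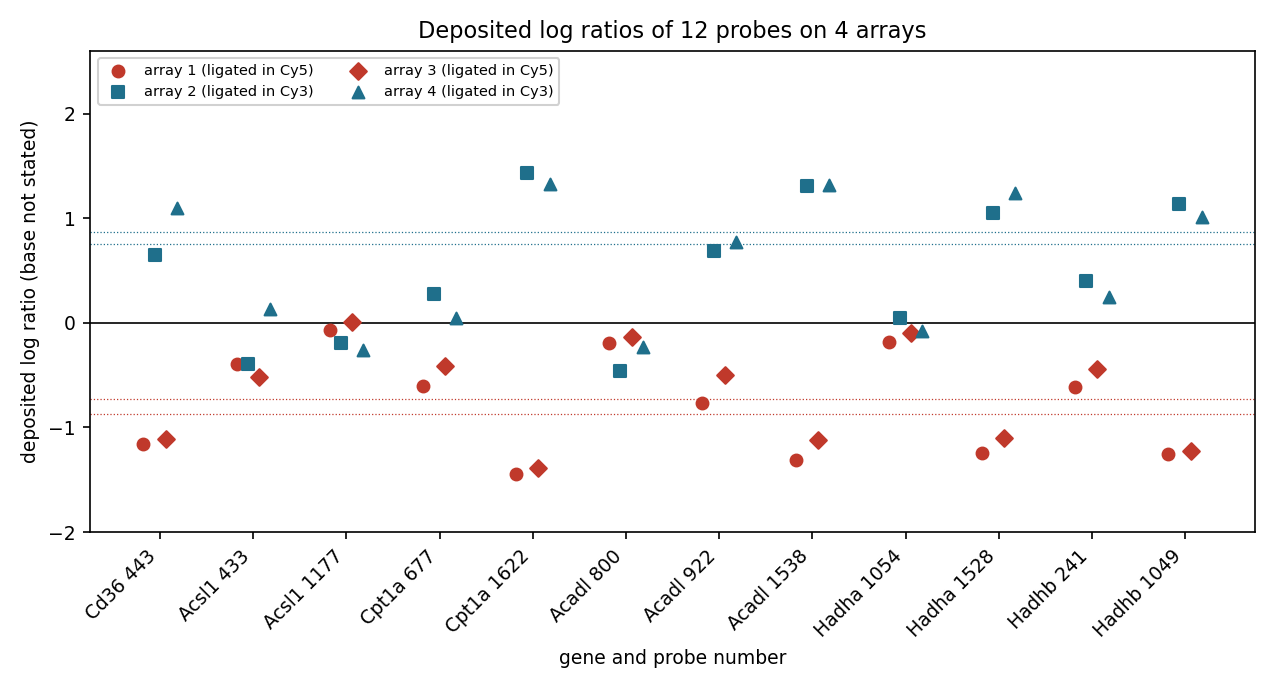
Deposited log ratios (vertical axis, base not stated) of the 12 probes (horizontal axis) on the 4 arrays, red for arrays with the ligated sample in Cy5 and blue for Cy3, with dotted lines at the array medians. Probe 1622 of Cpt1a and probe 1538 of Acadl follow the dye from about -1.44 to 1.43 and from -1.31 to 1.32, while probe 800 of Acadl stays between -0.46 and -0.14.

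Cd36, the scavenger receptor that helps fatty acids across the plasma membrane, had a single probe, 443. It read -1.16, 0.65, -1.11 and 1.10 on arrays 1 to 4. Its arrays thus parted by dye, low with the ligated sample in Cy5 and high in Cy3. Centred, the log ratio was -0.13 ± 0.08 (SE, n = 4 arrays; limma adjusted p = 0.554), with a 95% interval from -0.30 to 0.03. Without array 2 it was -0.053 and without array 4 -0.22, neither a call (adjusted p = 0.959 and 0.0835). The median of its block was -0.14, and after the dye curve per block the estimate was -0.0091 ± 0.04 (adjusted p = 0.924). Cd36 is also made by endothelial cells, adipocytes and macrophages. Of 9 endothelial markers listed, 3 were measured (Cdh5, Kdr and Tek, -0.18 to -0.05), and of 7 adipocyte markers 2 (Fabp4 at 0.06 and Pparg at -0.018). None of these passed. No gene of the macrophage and lymphoid list had a probe, and the part of other cells in the Cd36 value was not tested.

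Acsl1, the main long-chain acyl-CoA synthetase of liver, had the lowest estimate of the 12 probes at probe 433. Its deposited values were -0.39, -0.39, -0.52 and 0.13 on arrays 1 to 4. Array 4 alone was above 0. The log ratio fell by 0.30 ± 0.09 (SE, n = 4 arrays; limma adjusted p = 0.0219). The dye curve per block left a fall of 0.16 ± 0.04 (adjusted p = 0.0290). If the base of the log is 2, the mRNA fell by 18.6% on centred values. The mean of each of the 4 pairs that join a Cy5 and a Cy3 array was below 0, from -0.47 to -0.13, as were all pair means for 26.1% of the probes on the array. The call was lost without array 1 (-0.36), array 2 (-0.20) or array 3 (-0.23), and kept without array 4 (-0.40). The SE was 0.144 without array 1 or 3 and 0.0864 without array 2 or 4, so without array 1 the call was lost at a larger fall. The SE of 0.0864 holds no spread among Cy3 arrays, so the call kept without array 4 was not set against that spread. With the curve the call was kept without array 1 and lost without array 2, 3 or 4, with estimates of -0.20 to -0.13. The curve itself was still that of all 4 arrays, so an array left out of the fit had shaped the other values. Such fits therefore do not check the call without that array.

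The other Acsl1 probe, 1177 in block 10, read -0.068, -0.20, 0.0080 and -0.26. As deposited, these 4 values lay close to 0 and hardly moved with the dye, unlike the array medians. Centred, they were therefore higher in Cy5 than in Cy3, by 1.81. Its log ratio of -0.13 ± 0.08 did not pass (limma adjusted p = 0.548), nor did -0.073 ± 0.03 after the curve (adjusted p = 0.255). Its 4 curve-corrected values ran from -0.078 to -0.067. The curve takes out the mean dye contrast of these same 4 arrays, so agreement between dye orientations is largely built in. With both probes averaged, Acsl1 had -0.22 ± 0.07 and missed the threshold (adjusted p = 0.123 over 958 genes), also after the curve (-0.12 ± 0.03, adjusted p = 0.0685).

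Cpt1a, the liver carnitine palmitoyltransferase of the outer membrane, gave probes that differed. Probe 677 read -0.61, 0.27, -0.41 and 0.04 on arrays 1 to 4. As deposited, it was again lower with the ligated sample in Cy5. Centred, it was higher there (0.27 and 0.31, against -0.48 and -0.83 in Cy3). The centred log ratio of -0.18 ± 0.08 (SE, n = 4 arrays) did not pass (limma adjusted p = 0.288), and ran from -0.27 without array 2 to -0.093 without array 4. Corrected with the curve, it fell by 0.19 ± 0.04 and did (adjusted p = 0.0241), with curve-corrected values of -0.23, -0.08, -0.14 and -0.30. That call was lost without array 4 (-0.13) and kept without each of the others. The curve was again that of all 4 arrays, so these fits do not check the call without an array. It was the lowest of the 12 probes after that curve, and 4 other probes of its block were lower on centred values. Probe 1622 read -1.44, 1.43, -1.39 and 1.33 and moved almost wholly with the dye. The log ratio was -0.022 ± 0.08 (adjusted p = 0.991) on centred values and -0.016 ± 0.04 with the curve (adjusted p = 0.881). Averaged, Cpt1a had -0.10 ± 0.08 (adjusted p = 0.664).

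Acadl, the long-chain acyl-CoA dehydrogenase, fell at 1 of its 3 probes. Probe 800 read -0.19, -0.46, -0.14 and -0.23 on arrays 1 to 4, the only member probe below 0 on every array as deposited. Of all probes, 5.94% shared that. The log ratio fell by 0.26 ± 0.08 (SE, n = 4 arrays; limma adjusted p = 0.0485), which is -16.4% if the base is 2. After the dye curve per block the estimate was -0.14 ± 0.04 and missed the threshold (adjusted p = 0.0551). Without array 1, 2 or 3 the call was lost (-0.28, -0.23 and -0.24), and without array 4 it was kept (-0.29). Here too the SE was 0.144 without array 1 or 3 and 0.0864 without array 2 or 4. The SE of 0.0864 again holds no spread among Cy3 arrays.

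The remaining Acadl probes lay above 0. Probe 922 read -0.77, 0.69, -0.50 and 0.77, and its log ratio was 0.04 ± 0.08 (limma adjusted p = 0.987). Probe 1538 read -1.31, 1.31, -1.12 and 1.32 and had 0.05 ± 0.08 (adjusted p = 0.979). As deposited, both moved with the dye in every array. All 4 dye-swapped pair means were above 0 for both probes, as for 11.6% of probes on the array, though none by more than 0.084, and below 0 for probe 800 (-0.31 to -0.21). The difference of probe 800 from probe 922 was -0.30, as was that from probe 1538, and 94.1% and 94.4% of the 699 probe pairs of 340 genes with several probes differed by no more. Averaged, Acadl had -0.057 ± 0.07 (adjusted p = 0.889).

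Hadha and Hadhb, the alpha and beta subunits of the trifunctional protein, did not pass at any probe. Hadha probe 1054 read -0.19, 0.04, -0.10 and -0.079 on arrays 1 to 4, near 0 throughout. Its log ratio was -0.085 ± 0.08 (limma adjusted p = 0.869). Hadha probe 1528 read -1.25, 1.05, -1.11 and 1.24, parting by dye, with a log ratio of -0.022 ± 0.08 (adjusted p = 0.991). Hadhb probe 241 read -0.61, 0.40, -0.44 and 0.24 and had -0.11 ± 0.08 (adjusted p = 0.744). Hadhb probe 1049 read -1.25, 1.13, -1.22 and 1.01 and had -0.087 ± 0.08 (adjusted p = 0.856). All 4 estimates were below 0, between -0.11 and -0.022. After the dye curve per block they ran from -0.070 to -0.0011, again without a call. The 95% intervals of the centred estimates reached from -0.275 at the lowest to 0.145 at the highest.

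**Figure D2:**
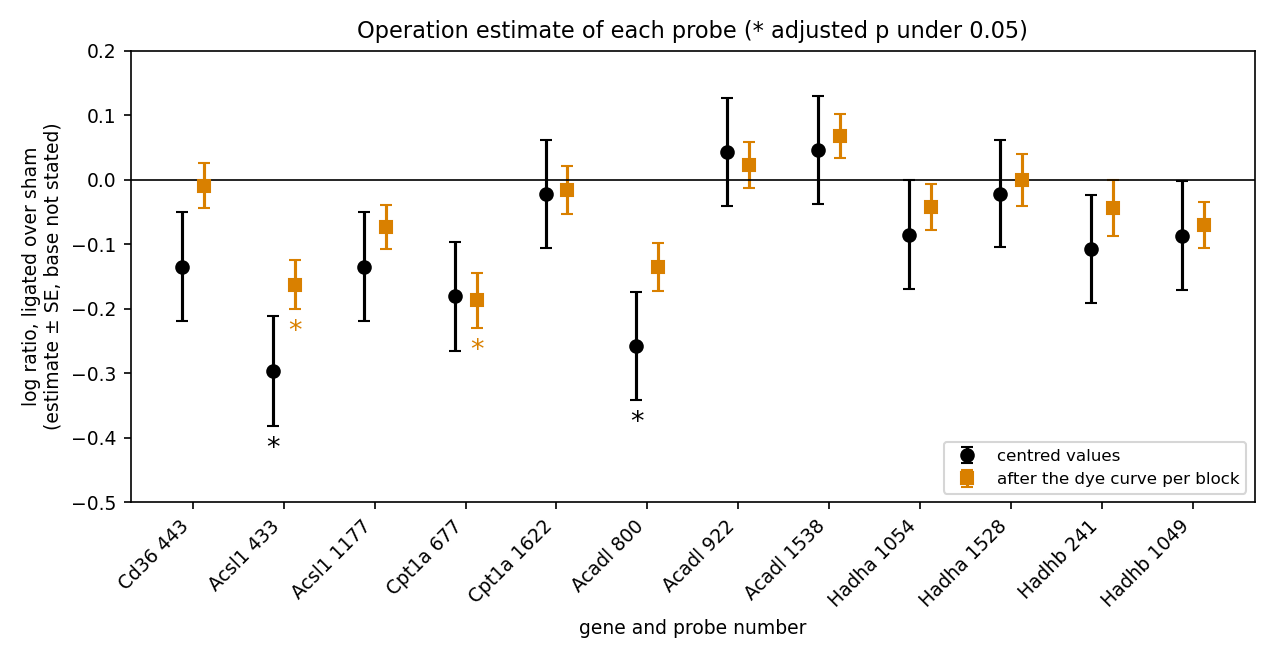
Operation estimate (vertical axis, log ratio of ligated over sham, base not stated) ± SE over 4 arrays for the 12 probes (horizontal axis), black on centred values and orange after the dye curve per block, with a star where the limma adjusted p was under 0.05. Acsl1 probe 433 is starred in both, Acadl probe 800 on centred values alone and Cpt1a probe 677 after the curve alone.

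Probes of the same gene differed most in how far they swung between dye orientations, that is, in the mean of arrays 2 and 4 minus the mean of arrays 1 and 3 as deposited. The swing was -0.20 and 0.32 for the Acsl1 probes. For Cpt1a it was 0.67 and 2.80, for Acadl -0.18, 1.36 and 2.53, for Hadha 0.13 and 2.32, for Hadhb 0.85 and 2.31, and for Cd36 2.01. The median swing of all probes was 1.62, and the 12 probes reached from the percentile of 9.97 (Acsl1 probe 1177) to that of 93.6 (Cpt1a probe 1622). In Cpt1a, Acadl, Hadha and Hadhb, the probe with the smallest swing also had the lowest estimate of its gene, in Hadhb by only 0.021, and in Acsl1 the order was the other way. Over the whole array, probes with a swing under 0.25 had a median estimate of -0.076 and 10.3% were called lower. With a swing over 2 the median was -0.015 and 2.09% were called lower. Acadl probe 800 belongs to the first of these groups, where 75.1% of the 478 probes lay below 0, and Acsl1 probe 433 to the middle group, of 0.25 to 2, where 50.9% did and 4.04% were called lower. Among probes of hepatocyte markers 9 of 15 had a swing under 0.25, against 24.7% of all probes. The part of the swing in these estimates was not tested apart from the dye curve per block. A ratio carries no level, so the presence of liver markers could not be checked as such.

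**Figure D3:**
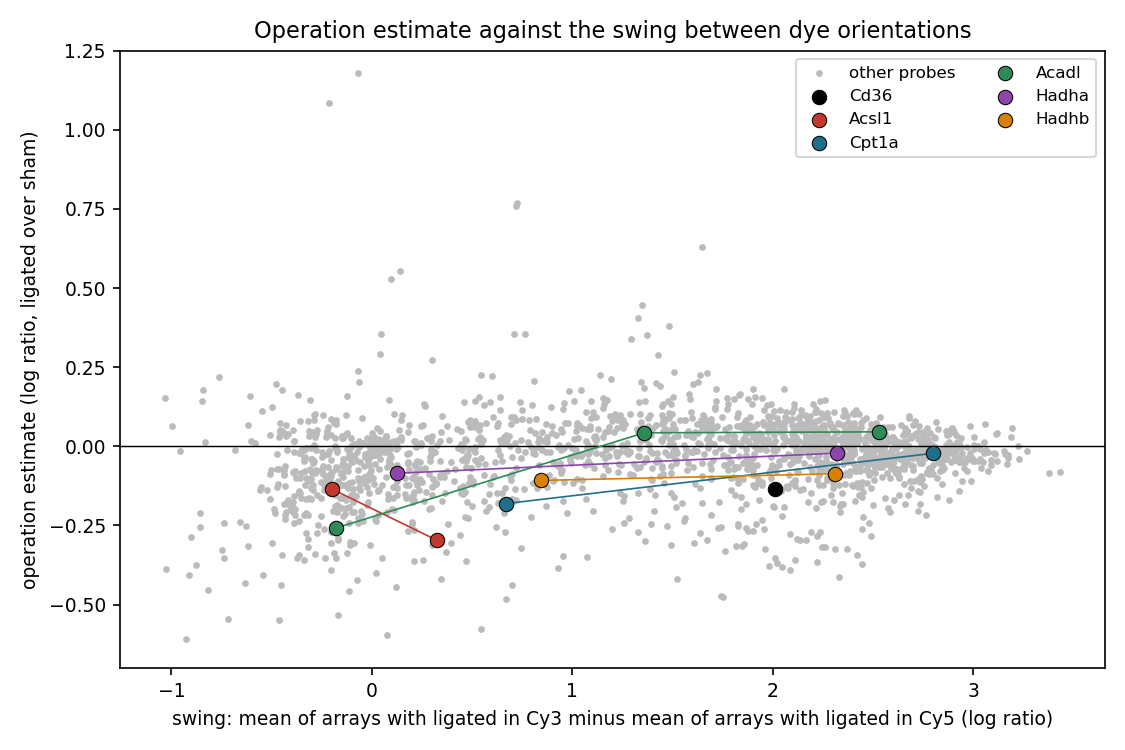
Operation estimate (vertical axis, log ratio of ligated over sham) against the swing between dye orientations (horizontal axis, log ratio) for all probes (grey) and the 12 member probes (coloured by gene, probes of a gene joined by a line). The probes of Acadl run from a swing of -0.18 with an estimate of -0.26 to a swing of 2.53 with an estimate of 0.05.

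Around these genes, 124 other genes of fatty acid handling had been listed, of which 27 were measured, at 47 probes. Among the 27, 2 rose (Fabp5 and Rxrg) and 3 fell (Cyp4f1, Cyp4f6 and Pdk2) at 1 or more probes. Over all 958 genes with a symbol, 1.46% had a probe called higher and 8.14% a probe called lower. The median over the 47 probes was -0.037, against -0.020 over all probes. Without array 1 or array 3 none of the 5 calls held, at estimates of 0.38 and 0.33 for Fabp5, 0.28 and 0.27 for Rxrg, -0.37 and -0.27 for Cyp4f6, -0.39 and -0.22 for Cyp4f1, and -0.36 and -0.35 for Pdk2 (limma adjusted p of 0.23 or more). The SE of these fits was 0.144, against 0.0864 without array 2 or 4, where only the Cy5 arrays gave a spread. Without array 2, Fabp5 and Cyp4f6 were kept, and Rxrg (0.24), Cyp4f1 (-0.22) and Pdk2 (-0.16) no longer passed. With the curve fitted in each block, 3 rose (Fabp5, Rxrg and Slc16a1) and 2 fell (Cyp4f1 and Cyp4f6), beside 4.59% and 5.22% of all genes.

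Uptake and binding genes gave 7 measured of 19 listed, Cd36 included, of which Fabp5 rose. Fabp5, a cytosolic fatty acid binding protein, had 0.36 ± 0.08 at probe 1526 (SE, n = 4 arrays; limma adjusted p = 0.00311) and 0.23 ± 0.08 at probe 1513 (adjusted p = 0.0989). Both passed after the curve, at 0.40 ± 0.04 and 0.25 ± 0.04 (adjusted p = 7.03e-05 and 0.00128). No other fatty acid binding protein measured (Fabp3, Fabp4, Fabp7) passed, nor did the lipases Lpl and Lipc. The hepatic lipase Lipc was the lowest of them, with -0.21 ± 0.08 (adjusted p = 0.154). Acsl1 was the sole measured gene of the 18 of activation and thioesterases.

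In the carnitine shuttle the carnitine importer Slc22a5 was measured beside Cpt1a, with 5 probes from -0.14 to 0.18 and no call. In mitochondrial beta-oxidation the enoyl-CoA hydratase Echs1 was measured beside Acadl, Hadha and Hadhb. Echs1 read 0.05, -0.073, -0.04 and -0.12, close to 0 like Hadha probe 1054, and had -0.049 ± 0.08 (limma adjusted p = 0.979). Of the ketone body list only the monocarboxylate transporter Slc16a1, which carries ketone bodies and lactate, had probes. Its 5 probes lay between -0.064 and 0.14 without a call, and 2 of them rose after the curve, probe 1262 by 0.19 ± 0.04 and probe 1212 by 0.16 ± 0.04 (adjusted p = 0.00917 and 0.0333). The peroxisomal list had 3 measured genes of 23 and no call. Farthest from 0 were Pex2 (probe 1035) and Pex6, both needed to build peroxisomes, at -0.076 and -0.044. The other probes of Pex2 lay above 0, at 0.0058 and 0.038.

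Genes of omega oxidation in the endoplasmic reticulum gave 5 measured of 12, and 9 of their 10 probes were below 0 on centred values (60.3% of all probes) but 6 of 10 with the curve (48.7% of all probes), at medians of -0.11 and -0.053. Cyp4f6, a fatty acid hydroxylase, fell by 0.32 ± 0.08 at probe 436 (SE, n = 4 arrays; limma adjusted p = 0.00904) and by 0.14 ± 0.04 after the curve (adjusted p = 0.0474). Its other 3 probes did not pass and ran from -0.23 to 0.05. Cyp4f1 fell by 0.31 ± 0.09 (adjusted p = 0.0169). Both called probes lie in block 4, beside Acsl1 probe 433.

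Regulators of the pathway gave 10 measured of 29, with 1 higher and 1 lower. Rxrg, the gamma member of the retinoid X receptors, read 0.05, 0.44, 0.20 and 0.42 at probe 582, above 0 on every array, as were 0.981% of all probes. It rose by 0.27 ± 0.08 (SE, n = 4 arrays; limma adjusted p = 0.0337) and by 0.28 ± 0.04 after the curve (adjusted p = 0.00150), but probe 1540 had -0.067 ± 0.08 (adjusted p = 0.935). Rxra, the main retinoid X receptor of liver, had -0.092 and -0.068 and did not pass. Pdk2, a kinase that restrains pyruvate oxidation, fell by 0.35 ± 0.09 (adjusted p = 0.00562) in block 3, a call lost after the curve (-0.031 ± 0.04, adjusted p = 0.757).

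**Figure D4:**
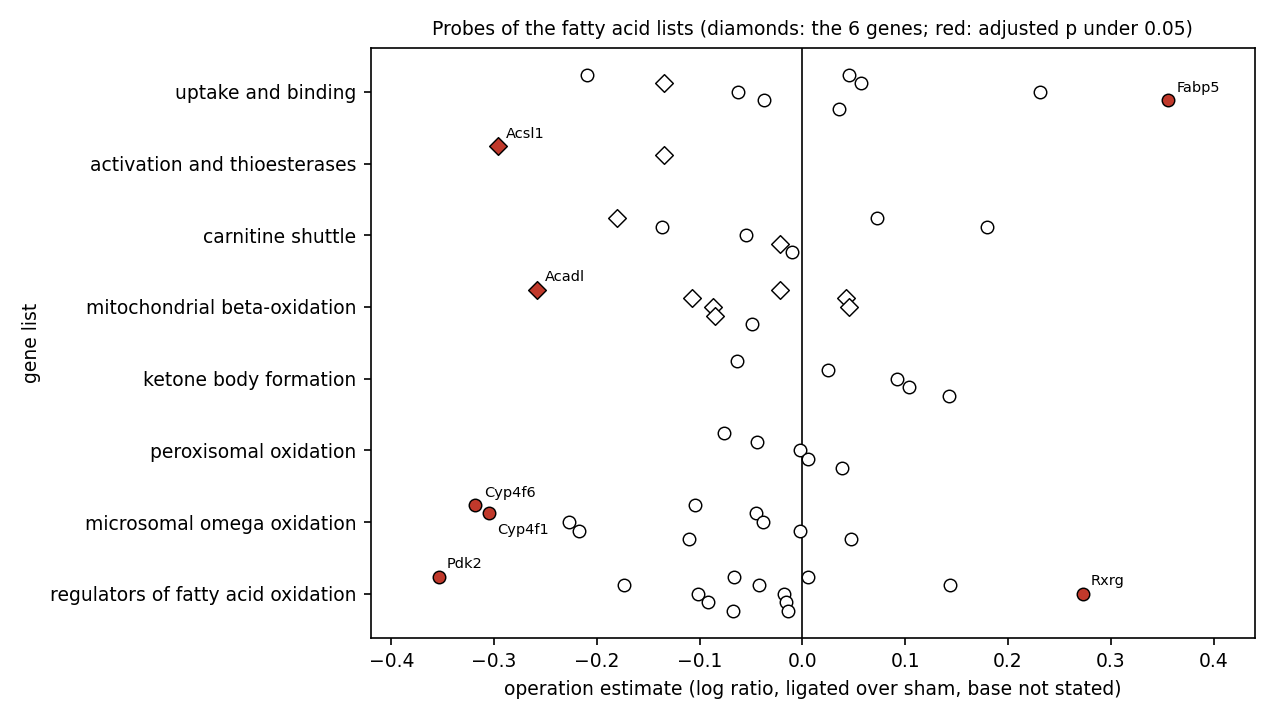
Operation estimate (horizontal axis, log ratio of ligated over sham, base not stated) of every probe of the 8 fatty acid lists (vertical axis), diamonds for the 6 genes followed here and circles for the others, red where the limma adjusted p was under 0.05. Fabp5 at 0.36 and Rxrg at 0.27 stand to the right, and Pdk2 at -0.35, Cyp4f6 at -0.32, Cyp4f1 at -0.31, Acsl1 at -0.30 and Acadl at -0.26 to the left.

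The probes whose 4 centred values lay nearest to those of each member were found by Euclidean distance, and examples follow. Nearest to Acsl1 probe 433 were Cyp2j3 (distance 0.163) and Cyp2e1 (0.229), both in the same block. Those nearest to Acadl probe 800 were Eif5-ps6 (0.133) and the omega hydroxylase Cyp4f6 at probe 198 (0.139). Cpt1a probe 677 lay nearest to Ppp1ca (0.128) and Arf1 (0.188), and Cd36 to Mt3 (0.0912) and Slc2a13 (0.102). With 4 arrays, of which the dye sets most of the pattern, such nearness describes the arrays and nothing more.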

How the data were processed

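For each of 1936 probes and 4 arrays the authors deposited a single log ratio, with no missing value. The base of the log, how backgrounds were handled, any normalization and the scanner are not given in the sources, and spot intensities were not used. Per the labels, poly(A) RNA of pooled livers was labelled during reverse transcription. The number of arrays limits the precision. Symbols came from the platform annotation, updated by gene ID through RefSeq's GRCr8 table (1 symbol for 1432 probes, several for 19, none for 485). Each array was centred on its median and fitted with terms for operation and dye by limma 3.58.1 (lmFit, eBayes; R 4.3.3), leaving 2 residual degrees of freedom, to which limma's prior added 76.2. SEs thus rest mostly on a spread common to all probes (median 0.084), not on a probe's own 4 values. From its own values alone, the SE was 0.12 for Acsl1 probe 433 and 0.036 for Acadl probe 800. An exact test over the signs of 4 arrays cannot go below a two-sided p of 0.125 and was not used. The dye curve per block was a loess (span 0.7) of each array on the mean dye contrast within 16 equal blocks of probe numbers, and its fit had a prior of 8.84 degrees of freedom. The fit was tested on simulated data with independent noise of the same spread for every probe and array and no block effect. That does not show how it fares with the uneven blocks and arrays seen here. Named were all member probes, and each other fatty acid gene called in either fit or otherwise the 2 genes of a list farthest from 0. Some uncalled genes of lists with a call, such as Rxra and Lipc, were named outside that rule. The 2 probes nearest to each member were also found, of which examples are given. Members, lists and settings were chosen with earlier results of these data known. Other settings were no centring, quantile normalization, equal scaling, no dye term, the Cy5 over Cy3 reading, averaged probes, and leaving out each array.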

Additional observations from a re-analysis of the deposited data

How the results depend on the processing

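The 2 calls among the 12 probes were made by limma on centred values with a prior of 76.2 degrees of freedom. As deposited without centring, with quantile normalization, with equal scaling of the arrays and without a dye term, limma called 0 of them (4, 2, 3 and 0 at unadjusted p under 0.05), as it did of the 6 genes with probes averaged (1 at unadjusted p under 0.05). After the dye curve per block 2 passed, of which 1 was common to both. Leaving out array 1, 2 or 3 gave 0 (1, 5 and 0 at unadjusted p under 0.05) and leaving out array 4 gave 2. A fit without an array has an infinite prior, so all probes share an SE. That SE was 0.144 without array 1 or 3 and 0.0864 without array 2 or 4. Calls lost without array 1 or 3 thus do not show that they rested on that array. Without array 2 or 4 only the Cy5 arrays gave a spread, the smaller one (SD 0.0949, against 0.166 in Cy3). Calls kept there thus take no account of the spread among Cy3 arrays. Of all probes 111 passed on centred values (18 higher, 93 lower), against 137 after the dye curve per block (70 higher, 67 lower), 3 without centring (all higher), 12 with quantile normalization (9 higher, 3 lower), 62 with equal scaling (15 higher, 47 lower), 0 without a dye term (5 at unadjusted p under 0.05) and 12 to 241 without 1 array. Of the other 27 fatty acid genes 5 passed, against 0 without centring, with quantile normalization or without a dye term (9, 9 and 0 probes at unadjusted p under 0.05), and 0 to 6 without 1 array. In the Cy5 over Cy3 reading, which turns arrays 2 and 4 and so reads out the dye, 1599 probes, 11 of the 12 and 26 of the 27 passed. There the estimates turned to 0.65 and 0.91 for Acsl1 probes 433 and 1177, 0.47 for Cpt1a probe 677, 0.90 and -0.46 for Acadl probes 800 and 1538, 0.74 for Hadha probe 1054 and 0.38 for Hadhb probe 241. Cpt1a probe 1622 ran from -0.079 to 0.0345 when 1 array was left out, and no other probe changed sign under any setting but that reading. The dye curve per block was also followed by fits without 1 array, a setting chosen after seeing the data. The curve itself still used all 4 arrays. Acadl probe 800 then had -0.17 to -0.10 and never passed. No paired analysis was possible because no second group of samples shares replicate numbers, and each ratio already sets ligated against sham RNA on its own array. The number of arrays limits what could be seen, and the depth of the spots is unknown.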

Other observations

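Over the 340 genes with several probes, 699 pairs of probes of the same gene differed by a median of 0.088 in the operation estimate, with 90% of pairs within 0.25. After the dye curve per block these were 0.055 and 0.16. The 2 probes of Acsl1 differed by 0.16 (77.1% of pairs differed by no more), those of Cpt1a by 0.16 (76.0%), those of Hadha by 0.064 (36.8%) and those of Hadhb by 0.021 (11.0%). After the curve Cpt1a moved to the upper end, with 0.17 and 92.6% of pairs at or below it. The difference between dye orientations (Cy5 minus Cy3 arrays, centred), whose SD over all probes was 1.11, was unlike between 2 probes of the same gene by a median of 0.61 over the array, and by 2.71 between Acadl probes 800 and 1538, 2.19 between the Hadha probes and 2.13 between those of Cpt1a.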
